A study of Homo sapiens with 10 samples.

Results

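Core components of the spliceosome were followed at the RNA level after knockdown of the DEAD-box helicase DDX41. The 57 genes were given as a list of gene names, with no threshold on a measured value, and they encode proteins of the U1, U2, U4/U6.U5 and minor snRNPs, the PRP19 complex, the catalytic steps and the exon junction complex. All 57 have a row in the deposited tables, which hold 63299 genes, and 54 of them passed the filter on low counts. The cells were U2OS, a human osteosarcoma line, in culture with DMEM and serum. The control group (siCtrl, 5 libraries) received control siRNA and the knockdown group (siDDX41, 5 libraries) received siRNA against DDX41, in both cases as a pool of siRNAs, and RNA was taken after 48 h. Nothing in the labels says that the 5 libraries of a group came from separate cultures, so that p-values measure the spread between these libraries, which may be technical. Polyadenylated RNA was sequenced as single reads. The comparison asks how transcript levels differ when DDX41 is depleted.

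The spliceosome removes introns from pre-mRNA and is assembled anew on each intron. U1 snRNP recognises the 5′ splice site, while SF1 and the U2AF dimer recognise the branch point and the 3′ splice site. U2 snRNP with the SF3A and SF3B complexes then replaces SF1 at the branch point. The U4/U6.U5 tri-snRNP joins, the PRP19 complex accompanies activation, and late factors assist exon ligation. A separate minor spliceosome removes a rare class of introns. DDX41 itself has been found in spliceosome preparations, and several members (SF3B1, U2AF1, ZRSR2) are known from recurrent mutations in myeloid neoplasms.

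Some members have exact copies in the genome sequence, and these bear on what could be counted. U2AF1, the small U2AF subunit that contacts the AG dinucleotide of the 3′ splice site, is annotated at chr21:43092956-43107570 (GRCh38, minus strand). A second copy is annotated at chr21:6484623-6499248. Their 945-base transcripts differed at 1 base, in the part of exon 1 before the coding sequence (A12C, U2AF1 base first, counted from 1 at the 5′ end of the transcript), which is 99.89% identity. The stretch that holds this difference is shown because reads that cover it are those that can tell the copies apart. The capital marks the differing base, and the windows lie at chr21:43107545-43107570 and chr21:6499223-6499248, both read from the minus strand.
U2AF1: gacgtctcccgAgggcgtcggcaggg
second copy: gacgtctcccgCgggcgtcggcaggg

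Promoter sequences from RefSeq (GRCh38.p14) were found for 50 of the 57 members. For each gene only the first listed promoter was taken, and the shares below depend on that choice. For some members, such as SLU7, SF3B2 and U2AF2, it lay inside the gene as annotated in GENCODE. The letters CCGGAAG, the core that ETS family factors bind, were searched on both strands of the 300 bases from 250 before to 50 after the start. They stood in 26 of the 50 member promoters (52.0%), against 18.2% of 11491 promoters of tested genes and 10.7% of all 27305 promoters taken. Among members that were higher after knockdown 13 of 18 promoters held the letters, among those lower 4 of 11, and among those not called 8 of 18. No test was made of these shares. Other motifs were searched separately, also where matches overlapped. CCAAT stood in 42.0% of member promoters and 36.1% of promoters of tested genes, GGGGCGGG (GC box) in 15 of the 50 and in 37.6%, AANATGGCG (YY1) in 8.0% and 6.41%, and TATAAA in 2.0% and 5.89%. CCAAT stood in 5 of 18 promoters of higher members, 6 of 11 of lower members and 8 of 18 of those not called. For the GC box these were 2 of 18, 5 of 11 and 8 of 18, also with no test.

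The 100 bases before the start are shown for the 2 called members with the largest rise and the 2 with the largest fall among those with a promoter in the table, so that both directions can be compared. PRPF3, with the largest rise of the called members, is not among them. Capitals mark CCGGAAG or its reverse complement, and each sequence is in the direction of its gene. PRPF18 is at chr10:13586865-13586964 and PRPF6 at chr20:63981032-63981131, both plus strand, and both rose. SNRNP48 is at chr6:7590098-7590197 and PRPF4 at chr9:113275558-113275657, both plus strand, and both fell.
PRPF18: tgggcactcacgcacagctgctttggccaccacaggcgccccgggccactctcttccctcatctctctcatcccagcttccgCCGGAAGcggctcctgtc
PRPF6: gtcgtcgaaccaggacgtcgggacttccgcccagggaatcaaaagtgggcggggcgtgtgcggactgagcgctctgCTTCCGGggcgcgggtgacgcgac
SNRNP48: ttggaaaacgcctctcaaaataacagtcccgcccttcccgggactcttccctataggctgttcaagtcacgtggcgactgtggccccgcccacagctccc
PRPF4: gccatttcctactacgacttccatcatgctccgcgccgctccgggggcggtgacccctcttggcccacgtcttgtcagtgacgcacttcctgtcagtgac

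Total counts lay between 23393764 and 24598860 in siCtrl and between 21807041 and 24896398 in siDDX41. Levels are given as CPM, the reads of a gene per 1000000 counted reads after TMM scaling of the library totals. The mesenchymal markers VIM, COL1A1, SPARC and FN1 lay between 1670 and 2810 CPM in siCtrl, as mean of 5 libraries, while CD3E had 0 counts and PTPRC, ESRP1 and ALB stood under 1 CPM. EPCAM stood at 7.99 CPM, CDH2 at 225 CPM and RUNX2 at 32.4 CPM. At an adjusted p under 0.01 in edgeR, VIM, CDH2 and RUNX2 were lower in siDDX41, with log2 fold changes of -0.087, -0.118 and -0.398. SPARC was higher at 0.181, and COL1A1, FN1 and EPCAM were not called. The mitochondrial share of counts was 1.135% to 1.685% in siCtrl and 1.995% to 2.294% in siDDX41. It thus moved with the group, and its part in the results was not tested. In bulk samples, fewer cells of a type and less RNA per cell cannot be told apart.

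DDX41 was checked first. It had 49.1, 49.4, 47.3, 47.2 and 50.5 CPM in siCtrl and 11.5, 13.7, 12.4, 11.2 and 12.3 CPM in siDDX41. The groups lay far apart, at 48.7 ± 1.43 and 12.2 ± 1.00 CPM (SD, n = 5 per group). This is a log2 fold change of -1.99 (SE 0.05), with an adjusted p of 4.47e-24 in edgeR's quasi-likelihood test and an exact two-sided permutation p of 0.00794, the smallest that 5 against 5 libraries allow.

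The spliceosome genes shifted in both directions by small amounts. Of the 54 members tested, 21 were higher in siDDX41 and 12 were lower at an adjusted p under 0.01, and 21 did not pass. Over all 16143 genes tested, 30.3% were called higher and 32.1% lower, 62.4% in all. The members' shares were 38.9% higher and 22.2% lower, 61.1% in all, so the share called was near the background. The 5 libraries of one group lay fully above or below the other in 30 members, which is 55.6%, against 55.9% of all genes tested.

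The members' changes were smaller in size than those of genes at large. The median absolute log2 fold change was 0.15 over the 54 members and 0.28 over all genes tested, and the signed medians were 0.06 and -0.001. A change over 0.5 on the log2 scale was reached by 1 member (1.85%) and by 27.6% of all genes. A change over 0.25 was reached by 14 members (25.9%, and 13 without U2AF1) and by 54.8% of all genes. The members were also better covered than most genes, with a median of 93.3 CPM in siCtrl against 31.3 CPM for 13143 protein-coding genes. Among genes between 4.69 and 7.86 log2 CPM, the range that holds the middle of the members, the median absolute change was 0.13 for 42 members and 0.22 for 6460 genes. In that range 64.3% of members and 74.6% of genes were called. These comparisons are descriptions, with no test.

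**Figure D1:**
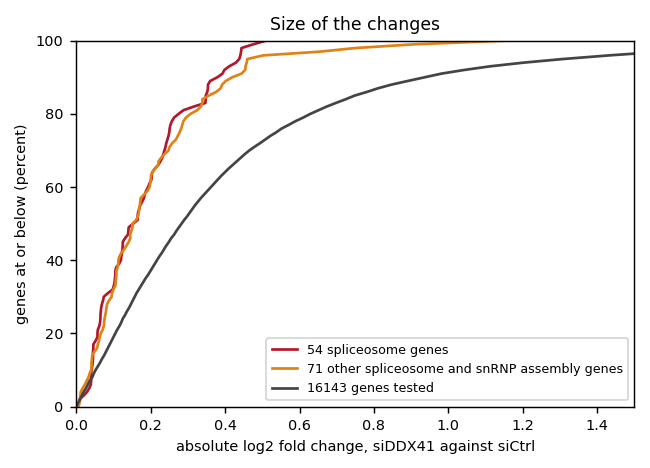
Cumulative share of genes (percent, vertical axis) at or below each absolute log2 fold change of siDDX41 against siCtrl (horizontal axis), for 54 spliceosome genes, 71 other spliceosome and snRNP assembly genes, and 16143 genes tested. Both pathway curves rise faster than that of all genes, with medians of 0.15, 0.15 and 0.28.

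The members that rose had a shorter median transcript than those that fell, with exceptions in both directions. PRPF4B (7517 bases) and SF3B1 (6463 bases) rose, and SNRPB (1082 bases) and SNRPA (1277 bases) fell. The lengths depend on which transcript is taken as canonical. The median canonical transcript of the 21 higher members had 1670 bases, that of the 12 lower members 3214.5 bases and that of 20 members not called (U2AF1 left out) 2529 bases. Across 53 members the Spearman correlation of log2 fold change with transcript length was -0.356, against -0.032 across 13143 protein-coding genes. The correlation with the number of introns was -0.166 and 0.011, with GC content 0.007 and -0.139, and with level -0.022 and 0.122, in members and all genes. Genes of the same 10 libraries are not independent replicates, so that these values are descriptions.

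**Figure D2:**
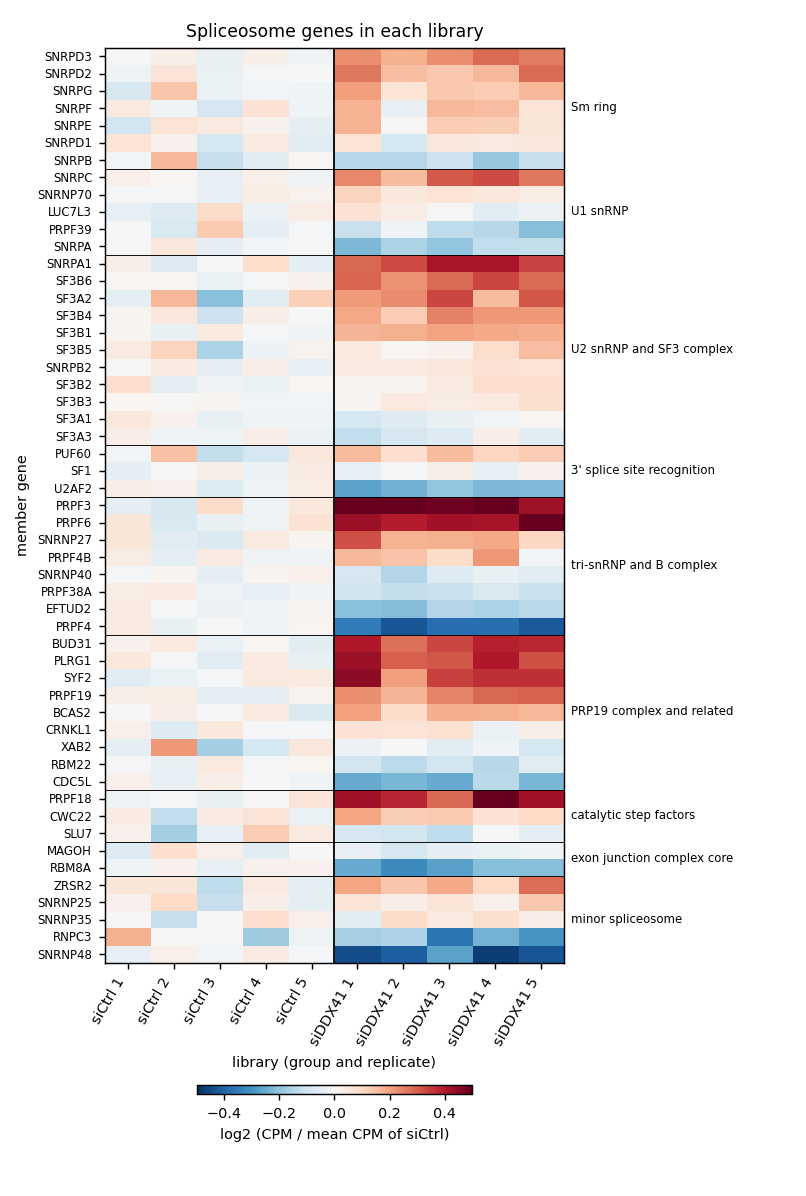
Log2 ratio of the CPM in each library to the mean CPM of siCtrl for 53 members (rows, by role; U2AF1 with under 1.1 CPM in each library is left out), with 5 siCtrl libraries to the left of the line and 5 siDDX41 libraries to the right. PRPF3, PRPF6 and PRPF18 are higher and PRPF4 and SNRNP48 lower in each of the 5 siDDX41 libraries.

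The Sm ring is the heptamer of SNRPB, SNRPD1, SNRPD2, SNRPD3, SNRPE, SNRPF and SNRPG that encircles the U1, U2, U4 and U5 snRNAs. Of the 7 genes, 3 rose, 1 fell and 3 did not pass, with a median log2 fold change of 0.11. Thus 57.1% were called, against 62.4% of all genes tested. SNRPD3 had 181, 185, 177, 185 and 179 CPM in siCtrl and 213, 205, 213, 221 and 217 CPM in siDDX41. The groups did not overlap, and the log2 fold change was 0.24 (SE 0.03, adjusted p = 6.84e-09). SNRPD2 rose from between 189 and 202 CPM to between 212 and 235 CPM, a log2 fold change of 0.20 (adjusted p = 9.34e-07).

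SNRPB, which encodes the SmB and SmB′ proteins, went the other way. It had 130, 147, 121, 126 and 132 CPM in siCtrl and 119, 119, 122, 115 and 121 CPM in siDDX41. The groups overlapped, with siCtrl replicate 3 below the highest siDDX41 library, and the log2 fold change was -0.14 (adjusted p = 0.00222). The call was lost without siDDX41 replicate 4 (adjusted p = 0.0104). The difference SNRPD3 minus SNRPB in log2 CPM was 0.47 ± 0.09 in siCtrl and 0.84 ± 0.06 in siDDX41 (SD, n = 5). The pair was chosen as the largest rise and fall of the ring, which fixes the direction of this shift. Transcript length enters such a difference alike in both groups, so that its change between groups, not its sign, is what it shows.

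SNRPG had 60.6, 70.4, 62.6, 63.3 and 63 CPM in siCtrl and 73.9, 67.1, 70.3, 69.9 and 71.7 CPM in siDDX41. The log2 fold change was 0.14 (adjusted p = 0.00159), and siCtrl replicate 2 lay within the range of siDDX41. Of its exonic windows of 84 bases, 70.8% were found nowhere else in the genome sequence. SNRPE and SNRPF had log2 fold changes of 0.10 and 0.11 and adjusted p-values of 0.0241 and 0.0264, and both passed without siDDX41 replicate 2, with 0.00682 and 0.00219. SNRPD1 had 0.03 (adjusted p = 0.477), and between 0.006 and 0.058 with one library left out.

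The products of these 7 genes enter the ring in equal numbers, but the transcripts differed widely in level. Per kilobase of canonical transcript, siCtrl had 375 CPM per kb of SNRPD2, 121 of SNRPB, 108 each of SNRPF and SNRPG, 52.4 of SNRPD3, 34.0 of SNRPE and 25 of SNRPD1. SNRPD2 was also the highest of all 54 members on this scale, followed by SF3B6 (168), SNRPC (135) and SF3B5 (134). Apart from U2AF1, the lowest were ZRSR2 (3.23), PRPF18 (5.15), SNRNP48 (6.31) and RNPC3 (6.64). These levels depend on which transcript is taken as canonical.

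**Figure D3:**
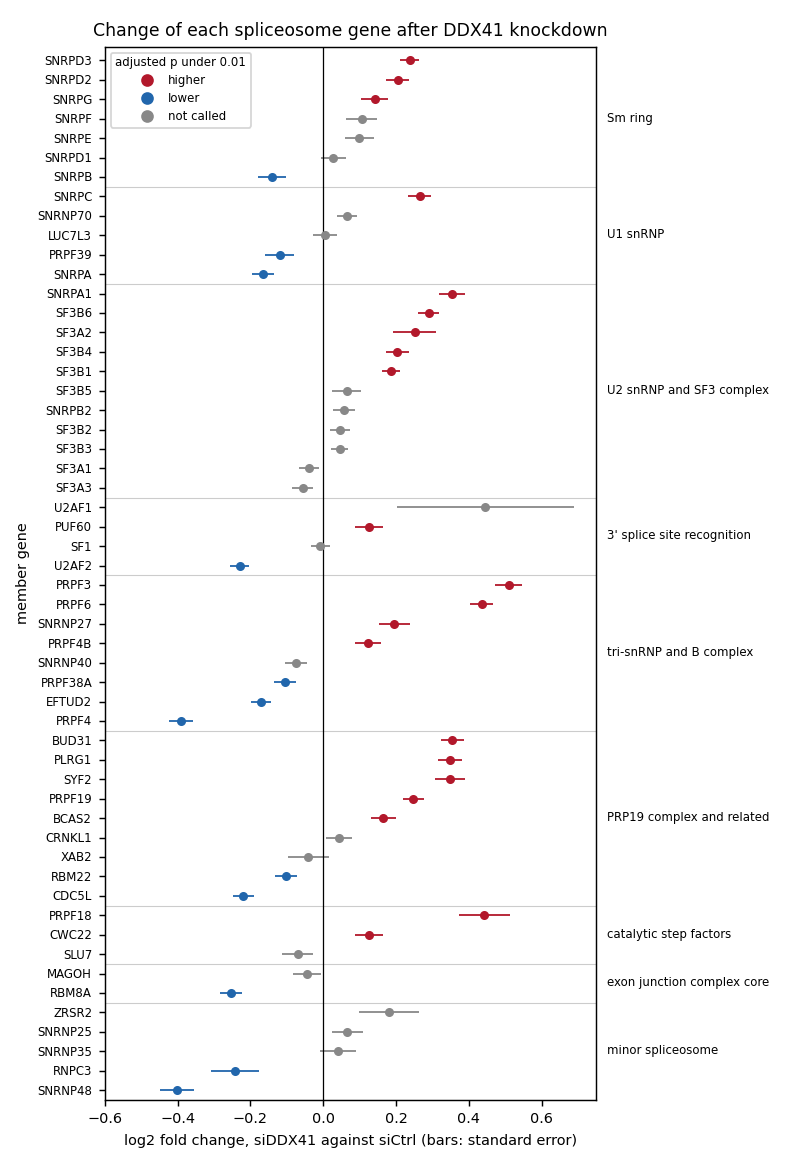
Log2 fold change of siDDX41 against siCtrl with its standard error (horizontal bars) for 54 members, grouped by role and coloured by the call at an adjusted p under 0.01 in edgeR. PRPF3 at 0.51 and SNRNP48 at -0.40 mark the ends among the called genes, and U2AF1 has the widest bar.

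Among the U1 snRNP proteins and their partners, 1 rose, 2 fell and 2 did not pass (median 0.005). Called were 60%, against 62.4% of all genes tested. SNRPC encodes U1-C, which helps U1 to pair with the 5′ splice site. It had 111, 110, 106, 111 and 108 CPM in siCtrl and 129, 122, 135, 137 and 131 CPM in siDDX41, with no overlap and a log2 fold change of 0.27 (adjusted p = 1.51e-08). SNRPA encodes U1-A, which binds stem-loop II of U1 snRNA. It had 103, 107, 99.4, 102 and 103 CPM in siCtrl and 88.1, 92.3, 89.7, 94.4 and 94.8 CPM in siDDX41, a log2 fold change of -0.17 (adjusted p = 2.41e-05), also with no overlap.

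The U1 proteins U1-C and U1-A thus changed in opposite directions at the RNA level. SNRNP70, which encodes U1-70K, had a log2 fold change of 0.07 (adjusted p = 0.0332) and LUC7L3, a U1-associated factor, of 0.005 (adjusted p = 0.889). PRPF39, another U1-associated protein, was called lower at -0.12 (adjusted p = 0.00801), but the call remained in 3 of 10 fits that left out 1 library each. FKBP3, on the opposite strand, shares 13.3% of its exon bases and had 267% of its counts.

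The U2 snRNP and its SF3A and SF3B complexes bind the branch point. Of their 11 genes, 5 rose and 6 did not pass (median 0.06), with 45.5% called against 62.4% of all genes tested. Of the 11, 0 were called lower by edgeR, DESeq2 or limma-voom. In edgeR 32.1% of all genes tested and 22.2% of the 54 members tested were called lower, and the difference was not tested. The catalytic step factors, with 3 genes tested, also had 0 called lower. At an unadjusted p under 0.05 in edgeR, 0 of the 11 were lower. The lowest was SF3A3 at -0.06 with an adjusted p of 0.0826. SNRPA1 encodes U2-A′. It had 67.0, 62.9, 65.2, 69.8 and 63.7 CPM in siCtrl and 80.2, 82.3, 87.3, 87.1 and 83.1 CPM in siDDX41. The groups lay apart by over 10 CPM, and the log2 fold change was 0.35 (SE 0.04, adjusted p = 3.03e-10). Of its exonic windows 63.7% had no copy elsewhere. SNRPB2, which encodes its partner U2-B″, had 0.06 (adjusted p = 0.0892).

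Within SF3B, 3 of 6 genes rose and 3 did not pass (50% called, against 62.4% of all genes tested). SF3B6 encodes p14, the subunit near the branch point adenosine, and was 110, 110, 107, 109 and 111 CPM in siCtrl and 134, 128, 133, 138 and 133 CPM in siDDX41. Its log2 fold change was 0.29 (SE 0.03, adjusted p = 2.98e-10), and the siCtrl libraries differed by 4 CPM at most. SF3B1, the scaffold that clamps the branch helix, rose from between 382 and 406 CPM to between 442 and 451 CPM, a log2 fold change of 0.19 (adjusted p = 1.15e-07). SF3B4 rose by 0.20 on the log2 scale (adjusted p = 1.17e-06).

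SF3B2, SF3B3 and SF3B5 had log2 fold changes of 0.05, 0.05 and 0.06, with adjusted p-values of 0.138, 0.0972 and 0.161. With one library left out SF3B5 lay between 0.025 and 0.093. In SF3A, SF3A2 was higher at 0.25 (SE 0.06, adjusted p = 0.00116). Its siCtrl libraries spread from 38.5 to 50 CPM and its siDDX41 libraries from 49.7 to 56.2 CPM. SF3A1 and SF3A3 were at -0.04 (adjusted p = 0.21) and -0.06.

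Of the 4 factors that recognise the branch point and the 3′ splice site, 1 rose, 1 fell and 2 did not pass. The share called was 50%, against 62.4% of all genes tested. U2AF2 encodes the large U2AF subunit, which binds the polypyrimidine tract. It had 250, 248, 233, 240 and 251 CPM in siCtrl and 203, 207, 213, 209 and 210 CPM in siDDX41. Each siDDX41 library lay below each siCtrl library, and the log2 fold change was -0.23 (SE 0.03, adjusted p = 1.22e-08). SF1, which holds the branch point before U2 arrives, had -0.01 (adjusted p = 0.792). The difference U2AF2 minus SF1 in log2 CPM was -0.21 ± 0.07 in siCtrl and -0.43 ± 0.02 in siDDX41 (SD, n = 5). With SF1 at -0.01, this shift restates the fall of U2AF2 and is no separate result.

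PUF60, a U2AF-related factor on chromosome 8, had 127, 142, 118, 121 and 133 CPM in siCtrl and 143, 136, 143, 138 and 140 CPM in siDDX41. The groups overlapped at siCtrl replicate 2. It was called higher at 0.13 (adjusted p = 0.00573), and the call remained in 3 of 10 fits that left out 1 library each. None of its exonic windows was unique in the genome sequence used here.

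U2AF1 was close to absent from the counts. It had 13, 19, 15, 14 and 7 reads in siCtrl and 16, 14, 21, 14 and 25 reads in siDDX41, and its second copy, whose sequence differs at the base shown above, had 33 to 43 and 38 to 55 reads. The sum was 40 to 58 reads in siCtrl and 55 to 73 reads in siDDX41. The log2 fold change of U2AF1 was 0.45 with an SE of 0.24 (adjusted p = 0.103), so a difference was not detectable in these counts. Without siCtrl replicate 5 the log2 fold change was 0.28. Of its windows 3.64% were unique.

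A further 3 members did not reach the filter on low counts. PRPF8, the central U5 protein that cradles the catalytic RNA (chr17:1650629-1684867, minus strand), had 1 read in siCtrl replicate 5, 1 read in siDDX41 replicate 5 and 0 reads in the other 8 libraries. PRPF31, which holds U4 to the tri-snRNP (chr19:54115410-54131719, plus strand), had 0, 0, 1, 1 and 1 reads in siCtrl and 2, 0, 0, 1 and 1 reads in siDDX41. CWC25, a factor of the first catalytic step (chr17:38800441-38825355, minus strand), had 0 reads in each of the 10 libraries, where a count of 0 allows up to 3 reads per library by counting error alone.

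These 3 genes had 0% unique windows, with copies on alternate haplotype sequences, which make up 261 of the 455 sequences of the genome file used here. PUF60 also had 0% and was counted at over 100 CPM in each library. CENATAC, a minor spliceosome gene that is no member, had 0 reads in each library although 100% of its windows were unique. The part of the copies in these counts was not tested, and the counts of PRPF8, PRPF31, CWC25 and U2AF1 are not read here as levels of their RNA. The other 52 members had at least 63.7% unique windows, and 49 of them at least 95%.

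The tri-snRNP and B complex group held the called gene with the largest rise. Among 8 genes tested, 4 rose, 3 fell and 1 did not pass (median 0.02). Here 87.5% were called, against 62.4% of all genes tested, and the difference was not tested. Other settings gave medians from 0.007 (without siDDX41 replicate 4) to 0.093 (DESeq2, where PRPF8 and PRPF31 with close to 0 reads also entered). PRPF3 and PRPF4 encode proteins that bind each other on the U4/U6 snRNA duplex. PRPF3 (ENSG00000117360.12, chr1:150321479-150353233, plus strand) had 51.2, 50.1, 56.5, 52.1 and 54.9 CPM in siCtrl and 75.4, 77.2, 74.2, 79.0 and 71.1 CPM in siDDX41. All siDDX41 libraries lay above the siCtrl libraries, and the log2 fold change was 0.51 (SE 0.04, adjusted p = 5.34e-13), which is 1.42-fold. PRPF4 (ENSG00000136875.12, chr9:113275642-113294009, plus strand) had 71.7, 67.6, 69.6, 68.4 and 69.9 CPM in siCtrl and 54.5, 51.6, 53.4, 53.5 and 51.9 CPM in siDDX41. All siDDX41 libraries lay below, with a log2 fold change of -0.39 (SE 0.03, adjusted p = 9.74e-12).

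These partner genes exchanged their order in CPM, and also in CPM per kilobase of canonical transcript. Per kilobase of canonical transcript the mean was 21.9 CPM per kb for PRPF3 and 24.0 for PRPF4 in siCtrl, and 31.2 and 18.3 in siDDX41. On the log2 CPM scale, not divided by length, PRPF3 minus PRPF4 was -0.39 ± 0.07 in siCtrl, between -0.48 and -0.30, and 0.51 ± 0.06 in siDDX41, between 0.45 and 0.58 (SD, n = 5). The difference moved by 0.90. Which gene stands higher within a group depends on transcript length and on which transcript is taken as canonical. The change between the groups, not the order, is what these values show. The pair was chosen after its values were seen.

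PRPF6, the U5 protein that bridges to U4/U6, rose with PRPF3. It had 123, 112, 115, 116 and 124 CPM in siCtrl and 159, 155, 158, 157 and 168 CPM in siDDX41, a log2 fold change of 0.43 (SE 0.03, adjusted p = 3.99e-13). EFTUD2, the U5 GTPase, fell from between 256 and 269 CPM to between 225 and 238 CPM, a log2 fold change of -0.17 (adjusted p = 1.51e-06). SNRNP27 rose by 0.20 on the log2 scale (adjusted p = 0.000196) and PRPF4B, a kinase of the B complex, by 0.12 (adjusted p = 0.00328). MXD1, on the same strand, shares 12.5% of the exon bases of SNRNP27 and had 11.9% of its counts.

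PRPF38A, which acts at activation of the B complex, was lower at -0.11 (adjusted p = 0.0025). SNRNP40, the U5 40K protein, did not pass at -0.07 (adjusted p = 0.0286). PRPF4B lost its call in 2 of the 10 fits that left out 1 library, and its siDDX41 libraries ranged from 87.9 to 103 CPM against 86.0 to 91.2 CPM in siCtrl, so that the groups overlapped.

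The PRP19 complex and related proteins stabilise the activated spliceosome. Their genes had 5 that rose, 2 that fell and 2 that did not pass (median 0.17). Here 77.8% were called, against 62.4% of all genes tested, and the difference was not tested. BUD31 had 104, 106, 100, 103 and 98.7 CPM in siCtrl and 135, 124, 129, 134 and 133 CPM in siDDX41. The groups were apart, with a log2 fold change of 0.35 (SE 0.03, adjusted p = 2.08e-11). PTCD1 overlaps 38.7% of its exon bases on the opposite strand and had 8.16% of its counts. PLRG1 and SYF2 rose by 0.35 each on the log2 scale (adjusted p = 6.53e-11 and 1.31e-08), PRPF19, the ubiquitin ligase that names the complex, by 0.25 (adjusted p = 8.49e-09), and BCAS2 by 0.17 (adjusted p = 9.73e-05).

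CDC5L, a core partner of PRPF19 and PLRG1, went the other way. It had 160, 153, 161, 157 and 155 CPM in siCtrl and 132, 134, 132, 143 and 134 CPM in siDDX41, a log2 fold change of -0.22 (SE 0.03, adjusted p = 7.98e-08), and the groups did not overlap. PLRG1 minus CDC5L was -0.52 ± 0.05 in siCtrl and 0.05 ± 0.06 in siDDX41 on the log2 CPM scale (SD, n = 5). The difference moved by 0.57, and this pair too was chosen after its values were seen. Per kilobase of canonical transcript PLRG1 was above CDC5L in both groups, with means of 33.1 and 25.2 CPM per kb in siCtrl and 42.2 and 21.6 in siDDX41. RBM22, which contacts the U6 snRNA, was lower at -0.10 (adjusted p = 0.00368), a call kept in 7 of 10 fits. CRNKL1 and XAB2 did not pass, at 0.04 and -0.04 (adjusted p = 0.269 and 0.528), and XAB2 had 51.8 to 67.7 CPM within siCtrl.

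**Figure D4:**
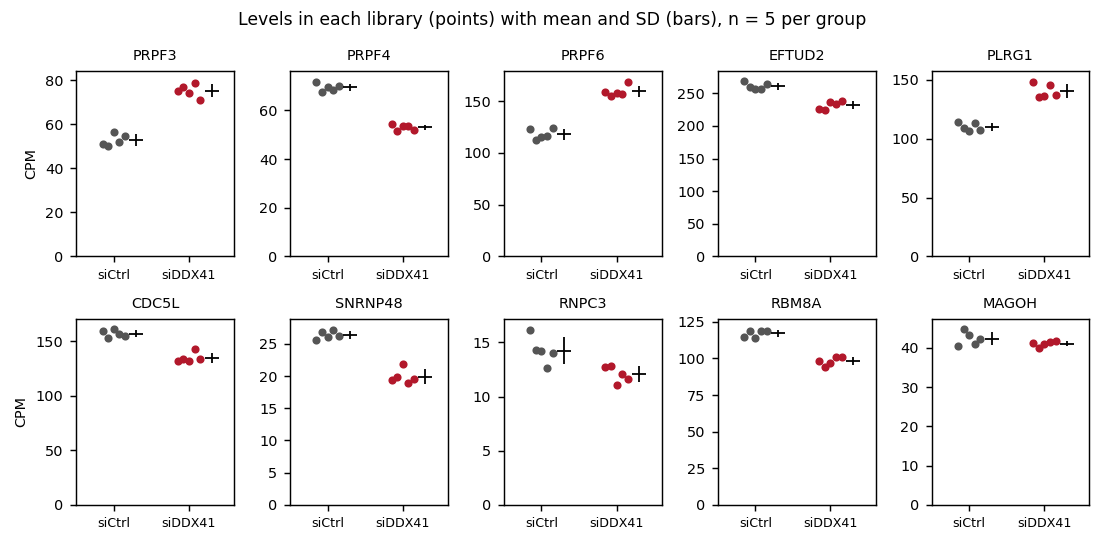
CPM in each library (points) with mean and SD (black bars, n = 5 per group) for 10 members, on linear axes from 0. PRPF3 and PRPF4 exchange their order in CPM, which is not divided by length, between siCtrl and siDDX41. PLRG1 is higher and CDC5L lower in each siDDX41 library than in any siCtrl library. MAGOH overlaps between the groups while RBM8A does not.

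Among the factors of the catalytic steps, 2 rose and 1 did not pass out of 3 tested. That is 66.7% called, against 62.4% of all genes tested. PRPF18, which acts at exon ligation, had 8.45, 8.53, 8.37, 8.64 and 9 CPM in siCtrl and 11.5, 11.2, 10.5, 13.7 and 11.5 CPM in siDDX41. Its log2 fold change was 0.44 (SE 0.07, adjusted p = 2.14e-06) with no overlap, but FRMD4A on the opposite strand shares 14.9% of its exon bases and had 392% of its counts. CWC22, which loads the exon junction complex, was higher at 0.13 (adjusted p = 0.00594), with the call kept in 6 of 10 fits. SLU7, which acts in the choice of the 3′ splice site, was at -0.07 (adjusted p = 0.148).

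MAGOH and RBM8A encode the heterodimer at the heart of the exon junction complex, which marks spliced exon borders. RBM8A had 115, 119, 114, 119 and 119 CPM in siCtrl and 98.3, 94.0, 97.1, 101 and 101 CPM in siDDX41. It fell with no overlap, by a log2 fold change of -0.25 (SE 0.03, adjusted p = 1.01e-08), and 70.1% of its windows were unique. MAGOH had 40.6, 44.9, 43.2, 40.9 and 42.4 CPM in siCtrl and 41.2, 40, 41, 41.4 and 41.8 CPM in siDDX41, which overlapped (log2 fold change -0.05, adjusted p = 0.287). MAGOHB, a gene for a near-identical protein that is no member, rose from 41 ± 1.76 to 50.2 ± 2.67 CPM (SD, n = 5), a log2 fold change of 0.29 (adjusted p = 3.22e-07).

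In the minor spliceosome, which removes U12-type introns, 2 genes fell and 3 did not pass of 5. Called were 40%, against 62.4% of all genes tested. SNRNP48 encodes a protein of the U11/U12 di-snRNP. It had 25.6, 26.8, 26.1, 27.1 and 26.2 CPM in siCtrl and 19.4, 19.8, 21.9, 19.0 and 19.6 CPM in siDDX41. This was the largest fall among the members, -0.40 on the log2 scale (SE 0.05, adjusted p = 1.09e-08), which is 0.757 of the siCtrl level, with no overlap. RNPC3 encodes the 65K protein that binds U12 snRNA, and it had 16.1, 14.3, 14.2, 12.6 and 14 CPM in siCtrl and 12.7, 12.8, 11.1, 12.1 and 11.6 CPM in siDDX41.

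RNPC3 was called lower at -0.24 (SE 0.07, adjusted p = 0.0015), and siCtrl replicate 4 lay within the range of siDDX41. The call was lost without siCtrl replicate 1. AMY2B, on the same strand, shares 18.9% of the exon bases of RNPC3 and had 3.98% of its counts. ZRSR2, which recognises the 3′ splice site of U12-type introns, had 4.37 to 4.98 CPM in siCtrl and 5.11 to 5.79 CPM in siDDX41. Its groups did not overlap, but the log2 fold change of 0.18 had an SE of 0.08 and an adjusted p of 0.053, and AP1S2 on the opposite strand had 749% of its counts. SNRNP25 and SNRNP35 were at 0.07 and 0.04 (adjusted p = 0.171 and 0.481), and RILPL1 on the opposite strand shares 44% of the exon bases of SNRNP35. With one library left out, SNRNP25 lay between 0.037 and 0.091 and SNRNP35 between 0.01 and 0.064.

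Of 74 other genes of the pathway, listed by role, 71 were tested, and 29 were higher, 16 lower and 26 not called. This is 63.4% called, against 62.4% of all genes tested, with a median log2 fold change of 0.04. In the LSM ring of U6 snRNA, 4 of 6 genes tested rose, 1 fell and 1 did not pass (median 0.20, 83.3% called). LSM4 had the largest value of the ring at 0.25 (adjusted p = 2.35e-08) and LSM8 was lower at -0.15 (adjusted p = 0.00814). Of 45 other spliceosome proteins, 22 were higher, 9 lower and 14 not called (68.9% called).

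The 3 largest rises in this list were GCFC2 at 0.46 (adjusted p = 1.77e-10), PPIL1, a cyclophilin, at 0.45 (adjusted p = 1.35e-13) and CWC27, another cyclophilin-type protein, at 0.39 (adjusted p = 7.78e-11). The 3 largest falls exceeded any among the members. GEMIN5, which recognises snRNAs for Sm ring assembly, fell from 72.5 ± 1.15 to 32.7 ± 0.932 CPM (SD, n = 5), a log2 fold change of -1.15 (SE 0.04, adjusted p = 4.24e-22). CASC3, which joins EIF4A3, MAGOH and RBM8A in the exon junction complex, and RNPS1, a peripheral factor of that complex, were lower at -0.80 (adjusted p = 2.59e-20) and -0.67 (adjusted p = 1.36e-17).

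In snRNP assembly as a whole, 3 of 15 genes tested were higher, 5 lower and 7 not called (median -0.04). Thus 53.3% were called, against 62.4% of all genes tested. Of 5 other minor spliceosome genes tested, 1 was lower, PDCD7 at -0.17 (adjusted p = 0.000238), and 4 were not called (20% called). Over both lists of minor spliceosome genes, 0 of 10 tested were called higher by edgeR, DESeq2 or limma-voom at an adjusted p under 0.01. In edgeR 30.3% of all genes tested were called higher, and the difference was not tested. At an unadjusted p under 0.05 in edgeR, 2 of the 10 were higher. LSM2, SMN1 and CENATAC were not tested, with 0 reads or close to 0 in each library, and they had 0%, 0% and 100% unique windows.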

How the data were processed

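RNA of U2OS cells was sequenced from 5 siCtrl and 5 siDDX41 libraries after 48 h of knockdown, and other libraries of the study were not analysed here. Per the methods and the submitters' processing notes, the authors made stranded TruSeq libraries, aligned single reads to hg38 (STAR 2.7) and summed them by gene (featureCounts 1.6). What was deposited are whole read counts of each library, not scaled in any way. Whether strand was used in counting, and how reads with several positions were treated, is not given in the sources used here. Total counts lay between 21807041 and 24896398.

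The test was edgeR's quasi-likelihood test (edgeR 4.0.16 in R 4.3.3, with TMM factors, robust glmQLFit and low genes removed by filterByExpr), with Benjamini-Hochberg adjustment over all 16143 genes tested and an adjusted p-value under 0.01. CPM used TMM-scaled library sizes, with a prior count of 0.5 on the log2 CPM scale. Standard errors were derived from the F statistic. Libraries of a group were compared pair by pair, and none of the 20 pairs agreed within sampling noise (chi-square per degree of freedom 1.763 to 5.672).

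Genes were joined to GENCODE annotation of GRCh38, the build of the files, by Ensembl identifier without version, and 98.7% of the tested genes matched. Exonic windows of 84 bases were searched in the hg38 sequence on both strands. Promoters came from RefSeq (GRCh38.p14), joined by symbol, with the first listed promoter taken for each gene.

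The members, their subgroups and the other lists were chosen with earlier results of these data known. Values of every library are given for DDX41, for the called member with the largest rise and the largest fall of each subgroup, for members with near-identical copies and for the smallest subgroup. Of the other pathway genes, the 3 largest rises and falls are named. Further members were named after their values were seen.

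Alternatives were DESeq2 1.42.0, limma-voom (limma 3.58.1), DESeq2 size factors, total counts, other filters and thresholds, the replicate number as a block, and leaving out each library. Leaving out genes with under 50% unique windows was added after the data were seen. On simulated counts of this comparison (15871 genes), 153 of 195 genes changed 1.5-fold were recovered (78.5%), with 3 false calls. No member changed by as much, with a largest rise of 1.42-fold and a largest fall to 0.757 of siCtrl. Recovery of changes of their size was thus not tested. The simulation also changed few genes, whereas 62.4% of the genes tested were called in the data.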

Additional observations from a re-analysis of the deposited data

Results flagged for a closer look

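In each group of 5 libraries, a library was looked at again where its gap to the nearest other library was large against the range of the group (Dixon's ratio above 0.71). This held for 5 of 110 groups, and chance gives about 1 in 20. SNRPD1 was lowest in siDDX41 replicate 2, at 114 CPM, where the next library had 125 CPM. SNRPG was highest in siCtrl replicate 2, at 70.4 CPM against 63.3 CPM in the next. PRPF6 was highest in siDDX41 replicate 5, at 168 CPM against 159 CPM. CDC5L was highest in siDDX41 replicate 4, at 143 CPM against 134 CPM. SNRNP48 was highest in siDDX41 replicate 3, at 21.9 CPM against 19.8 CPM. The calls of SNRPG, PRPF6, CDC5L and SNRNP48 were kept in each of the 10 fits that left out 1 library, and SNRPD1 was not called.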

How the results depend on the processing

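Of the 33 member calls, 26 were kept in each of the 10 fits that left out 1 library, and no member was called in the opposite direction under any other tool, scaling, filter or left-out library. limma-voom kept 33, DESeq2 31 (without PRPF39 and RBM22), total counts 31 and DESeq2 size factors 32. With one library left out, 19 to 23 members were higher and 9 to 12 lower. Requiring an absolute log2 fold change over 0.25 as well left 10 members higher and 3 lower, and 11 other pathway genes higher and 10 lower.

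The median of the 3′ splice site group changed sign with at least 1 CPM in 5 libraries (-0.011), where U2AF1 was not tested, and was -0.12 without genes of few unique windows, where PUF60 was also left out. The tri-snRNP median, 0.024 in edgeR, was 0.093 in DESeq2 and 0.078 in edgeR with no filter on low counts. Neither of these fits removed low genes by filterByExpr, so that PRPF8 and PRPF31 with close to 0 reads entered. In edgeR with DESeq2 size factors and the filter kept, the median was 0.031. With total counts it was 0.012. With one library left out, the medians ranged from -0.01 to 0.027 for U1, from 0.048 to 0.093 for U2 and SF3, from 0.007 to 0.039 for the tri-snRNP (lowest without siDDX41 replicate 4, highest without replicate 5), and from 0.01 to 0.064 for the minor spliceosome. The highest U1 value came without siCtrl replicate 3, and the highest U2 and lowest minor values without siCtrl replicate 2. LUC7L3 was -0.006 with total counts and between -0.01 and 0.027 with one library left out, SF1 was 0.001 in DESeq2 and between -0.021 and 0.002, and XAB2 was between -0.081 and 0.019. None of these 3 genes was called.

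Same-numbered libraries did not deviate together (correlations -0.0475 to 0.0391), so that the numbers were not taken as pairs. With the replicate number as a block, 32 of 33 member calls were kept, with 21 higher and 11 lower, and PRPF39 was lost (adjusted p = 0.0114). The block left 9887 genes called in all, against 10068. Of the members tested U2AF1 had the fewest reads, 7 to 25 in a library, and the part of depth in this was not tested.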
